A study of Mus musculus with 6 samples.

Results

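Caspases are cysteine proteases that cut target proteins after aspartate, and 6 of those measured in mouse regulatory T cells (Treg) are described here: Casp1, Casp2, Casp4, Casp6, Casp8 and Casp9. They were chosen by name, as every probe set whose only annotated gene symbol is one of these, which gave 7 of 22626 probe sets and 6 of 12393 genes with a symbol of their own. Casp9 had 2 probe sets and the others 1 each. The study profiled sorted CD4+YFP+ Treg, 1 array per sample, to ask what loss of the deubiquitinase Usp7 in Treg does to gene expression. In the first group are 3 arrays with USP7 titles. The series text describes their mice as fl-Usp7/Foxp3cre, while their genotype field reads fl-HDAC11/Foxp3cre, so both genes were examined and the arrays are called USP7-titled. The controls are 3 arrays with B6_WT titles and the genotype Foxp3cre. Both groups thus carry Foxp3cre, in which the Foxp3 gene drives the recombinase, and both have a C57BL/6 background. Ages and pooling of animals are not given in the labels. No label ties a sample to 1 animal, and the p-values refer to variation among samples, which may be partly technical.

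Initiator caspases start apoptosis once they are brought together on a scaffold: Casp8 on death receptors such as Fas, Casp9 on the apoptosome that Apaf1 forms with cytochrome c, and Casp2 on the PIDDosome. Executioner caspases, here Casp6, are cut by other caspases and then dismantle the cell. The inflammatory caspases Casp1 and Casp4 (also called caspase-11 in mouse) are activated by inflammasomes and by intracellular bacterial lipopolysaccharide, and they drive pyroptosis and the maturation of interleukin-1 family cytokines. In T cells Casp8 is also known to hold back necroptosis, a death program that runs through Ripk3. Caspases are made as inactive precursors, so a transcript level is not a level of protease activity.

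The sequences upstream of the 3 caspases that changed, and a shorter stretch of the Casp2 promoter for contrast, which held the least common of the matched motifs, are printed first. They come from RefSeq (build GRCm38.p6, plus strand, 5′ to 3′), in which all 6 genes had a promoter of 300 bases. Capitals mark matches to 7 motifs searched on both strands: the GC box (GGGCGG), E2F (TTTCCCGC), CCAAT, ISRE, GAS (TTCNNNGAA), the NF-kB consensus and the p53 half-site.
Casp1 (chr9:5298267-5298516): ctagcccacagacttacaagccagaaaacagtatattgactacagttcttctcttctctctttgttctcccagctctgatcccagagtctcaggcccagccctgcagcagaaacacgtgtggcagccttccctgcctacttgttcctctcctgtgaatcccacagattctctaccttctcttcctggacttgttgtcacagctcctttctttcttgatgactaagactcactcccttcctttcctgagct
Casp4 (chr9:5308599-5308848): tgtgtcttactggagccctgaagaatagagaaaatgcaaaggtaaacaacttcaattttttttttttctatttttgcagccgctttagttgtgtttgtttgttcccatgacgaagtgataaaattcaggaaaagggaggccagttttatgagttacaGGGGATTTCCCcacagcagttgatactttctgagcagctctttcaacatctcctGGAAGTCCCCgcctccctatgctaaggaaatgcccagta
Casp8 (chr1:58802252-58802501): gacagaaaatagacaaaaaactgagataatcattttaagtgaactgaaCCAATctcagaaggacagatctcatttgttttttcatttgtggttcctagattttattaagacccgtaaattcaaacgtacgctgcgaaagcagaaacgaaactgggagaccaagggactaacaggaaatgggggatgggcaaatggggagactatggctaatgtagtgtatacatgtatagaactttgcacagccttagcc
Casp2 (chr6:42264835-42264954): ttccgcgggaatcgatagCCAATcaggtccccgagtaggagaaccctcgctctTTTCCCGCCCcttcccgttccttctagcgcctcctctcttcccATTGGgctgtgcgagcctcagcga
The Casp4 stretch held NF-kB matches at positions -93 to -83, where overlapping matches on both strands share their letters, and at -39 to -30, counted from the first of 2 annotated start sites that lie 11 bases apart. From the second, the same matches lie at -104 to -94 and -50 to -41. An NF-kB match stood in 8.46% of all 32851 promoters of this length. The Casp8 stretch held 1 CCAAT match, found in 37.4% of all promoters, and the Casp1 stretch none of the 7 motifs. The Casp2 promoter held the E2F match, found in 1.07% of all promoters, which overlaps a GC box, and CCAAT on either side of it. GC boxes stood in the promoters of Casp2, Casp6 and Casp9, and in 35.7% of all promoters. No member promoter matched ISRE, GAS or the p53 half-site, which stood in 3.44%, 8.30% and 8.36% of all promoters. A match describes these letters and is not evidence of binding.

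The arrays themselves were alike in median. Values are log2 expression as deposited, with array medians of 7.91 to 7.95 in USP7-titled arrays and 7.93 to 7.96 in B6_WT-titled arrays. The mean of the hybridization spikes was 12.51 to 12.61 in USP7-titled arrays and 12.64 to 12.77 in B6_WT-titled arrays, without overlap. The 3′ minus 5′ signal of the Gapdh control, a measure of RNA quality, was 0.907 to 0.986 against 0.989 to 1.23, also without overlap. Usp7 read 10.54, 10.69 and 10.76 by its brighter probe set in USP7-titled arrays, against 11.69, 11.73 and 11.61 in B6_WT-titled arrays; it fell by 1.01 (SE 0.07) with a limma adjusted p = 2.04e-06, and its other probe set changed by -0.98. The brighter Hdac11 probe set changed by -0.58 (limma adjusted p = 0.019, and 0.0878 without B6_WT replicate 1 or 0.0645 without USP7 replicate 2) and the dimmer by -0.22 (limma adjusted p = 0.354), or by -0.056 without B6_WT replicate 1, -0.40 without B6_WT replicate 2 and -0.063 after scaling to the hybridization spikes. Both Hdac11 probe sets were dim. By percentile of brightness, the brighter lay at 21.6 in USP7-titled and 27.7 in B6_WT-titled arrays, and the dimmer at 4.83 and 5.98. Foxp3, the transcription factor that defines Treg, read 6.85, 7.29 and 6.87 in USP7-titled arrays, against 12.82, 13.13 and 12.99 in B6_WT-titled arrays (SE of the change of -5.98 was 0.13). The Treg label of the USP7-titled arrays therefore rests on the sort and not on Foxp3 transcript. Of the 11 measured T cell and Treg markers 0 rose and 7 fell, at a median of -0.12; 4 fell without B6_WT replicate 2, USP7 replicate 2 or USP7 replicate 3. Ctla4 fell by 0.36. Cd3d read 12.92 in USP7-titled and 12.99 in B6_WT-titled arrays, and neither it nor Cd2 (-0.06) passed; both changes turned positive after spike scaling (0.089 and 0.097). The X-inactivation RNA Xist read 5.30 and the Y-linked Eif2s3y 10.15 in USP7-titled arrays, against 12.50 and 4.50 in B6_WT-titled arrays. Sex and group therefore cannot be told apart for any caspase. The test was limma's moderated test over all 22626 probe sets with Benjamini-Hochberg adjustment and a threshold of 0.05.

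The 2 inflammatory caspases were higher in USP7-titled arrays, the initiator Casp8 was lower, and Casp2, Casp6 and Casp9 did not pass the threshold. By probe set, 2 of 7 rose and 1 fell, where 16.2% of all probe sets rose and 17.1% fell, and 33.3% were called in either direction. The caspase counts are read against this background and nothing particular to caspases is drawn from them. The groups did not overlap in 5 of 7 caspase probe sets, against 45.7% of all probe sets; 2 lay above the controls and 3 below, against 20.1% and 25.6%. By the brightest probe set of each gene, 2 of 6 caspases rose and 1 fell, where 32.4% of all genes were called, and 4 of 6 did not overlap, against 45.6% of genes, with 2 above and 2 below, against 20.9% and 24.7%. The median change was -0.14 over the caspase probe sets and -0.06 over all probe sets.

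**Figure D1:**
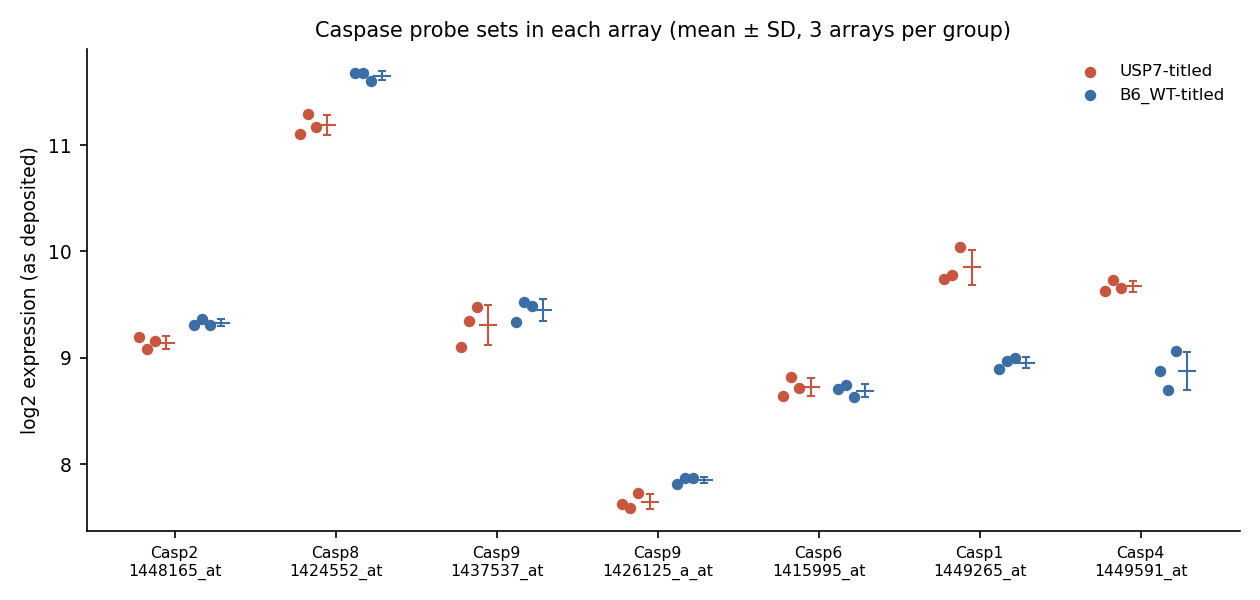
Log2 expression of the 7 caspase probe sets in each array, with USP7-titled arrays left of B6_WT-titled arrays; points are arrays, and bars are mean ± SD of 3 arrays. Casp1 and Casp4 lie higher in every USP7-titled array than in any B6_WT-titled array, Casp8 lies lower, and the groups overlap in Casp6 and in the brighter Casp9 probe set.

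Casp1, the protease that inflammasomes activate to mature interleukin-1 beta and interleukin-18, read 9.74, 9.78 and 10.04 in USP7-titled arrays, against 8.90, 8.97 and 8.997 in B6_WT-titled arrays. The groups did not overlap, and the highest reading was that of USP7 replicate 3. Its mean was 9.85 ± 0.16 in USP7-titled arrays and 8.95 ± 0.05 in B6_WT-titled arrays (SD, n = 3 each). The change was 0.90 (SE 0.11, 95% interval 0.66 to 1.13), or 1.86-fold (limma adjusted p = 9.39e-05). Without USP7 replicate 3 it was 0.80. Only 6.08% of all probe sets changed by more in either direction.

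Casp4, which in mouse senses intracellular lipopolysaccharide, read 9.62, 9.73 and 9.66 in USP7-titled arrays, against 8.88, 8.70 and 9.06 in B6_WT-titled arrays. All 3 USP7-titled arrays lay above all 3 controls. The mean was 9.67 ± 0.05 in USP7-titled arrays and 8.88 ± 0.18 in B6_WT-titled arrays (SD, n = 3 each). The change was 0.79 (SE 0.11, 95% interval 0.55 to 1.04), or 1.73-fold (limma adjusted p = 0.000294), and 7.95% of all probe sets changed by more. The 95% intervals of Casp1 and Casp4 overlap along most of their length. In the reference annotation these genes are neighbours on chromosome 9, followed by Casp12, an inflammatory caspase of mouse. Casp12 read 4.78, 4.78 and 4.54 in USP7-titled arrays, against 4.89, 4.70 and 4.78 in B6_WT-titled arrays by its brighter probe set. Its change was -0.10 (SE 0.13, limma adjusted p = 0.616, turning to 0.06 when arrays were scaled to the hybridization spikes), at about the 11th percentile of brightness. Casp14, a caspase of skin differentiation, changed by 0.19 (SE 0.13, limma adjusted p = 0.318), at the 17.7th percentile of brightness in USP7-titled arrays and the 15.1th in controls.

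Casp8, the initiator that death receptors recruit, read 11.10, 11.29 and 11.17 in USP7-titled arrays, against 11.68, 11.68 and 11.61 in B6_WT-titled arrays. Every USP7-titled array lay below every control. Its mean was 11.19 ± 0.10 in USP7-titled arrays and 11.65 ± 0.04 in B6_WT-titled arrays (SD, n = 3 each). The change was -0.47 (SE 0.06, 95% interval -0.60 to -0.33; limma adjusted p = 0.00019), so that USP7-titled arrays held 72.4% of the level in controls. After spike scaling the fall was smaller, at -0.31 (limma adjusted p = 0.0147). Of all probe sets, 21.6% changed by more in either direction. The probe set is bright, ranking at the 92.5th percentile in USP7-titled arrays and the 95.3rd in controls.

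Casp9, the apoptosome protease, was read by a pair of probe sets, and neither passed. The brighter read 9.10, 9.35 and 9.48 in USP7-titled arrays, against 9.33, 9.53 and 9.49 in B6_WT-titled arrays. These overlapped, with USP7 replicate 1 the lowest, and the change was -0.14 (SE 0.12, 95% interval -0.40 to 0.12, limma adjusted p = 0.396), which turned to 0.019 after spike scaling and was -0.036 without USP7 replicate 1 and -0.22 without USP7 replicate 3. The dimmer probe set read 7.62, 7.59 and 7.73 in USP7-titled arrays, against 7.81, 7.87 and 7.86 in B6_WT-titled arrays, which did not overlap. Its change was -0.20 (SE 0.11, 95% interval -0.45 to 0.05, limma adjusted p = 0.212), or -0.042 after spike scaling. The changes of the 2 probe sets differed by -0.06, less than the spread between arrays (two-sided exact permutation p = 0.6).

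Casp2, the PIDDosome protease, read 9.19, 9.08 and 9.16 in USP7-titled arrays, against 9.31, 9.37 and 9.31 in B6_WT-titled arrays. The groups did not overlap, but the change of -0.19 did not pass (SE 0.09, 95% interval -0.39 to 0.02, limma adjusted p = 0.151), and was -0.028 after spike scaling. Casp6, an executioner that cuts nuclear lamins, read 8.64, 8.81 and 8.72 in USP7-titled arrays, against 8.70, 8.74 and 8.63 in B6_WT-titled arrays. The readings intermingled, and the change was 0.03 (SE 0.10, 95% interval -0.20 to 0.26, limma adjusted p = 0.841), or -0.012 without USP7 replicate 2 and 0.19 after spike scaling. For the values as deposited, a rise of Casp6 above 1.202-fold or a fall of Casp2 below 76.3% of control lies outside these intervals. The intervals do not cover the choice of scaling.

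Over single probe sets the two-sided exact permutation p was 0.1, the smallest that 3 against 3 arrays can give, for Casp1, Casp2, Casp4, Casp8 and the dimmer Casp9 probe set. It was 0.4 for the brighter Casp9 probe set and 0.6 for Casp6. By its brightest probe set, the SD was larger among USP7-titled arrays in 5 of 6 caspases, Casp4 being the exception. The SDs ran from 0.054 to 0.19 in USP7-titled arrays and from 0.032 to 0.18 in B6_WT-titled arrays. Over all probe sets, arrays correlated at r = 0.992 to 0.993 among USP7-titled arrays and 0.995 to 0.996 among B6_WT-titled arrays. The share of all genes with the larger SD in USP7-titled arrays was not counted, so nothing particular to caspases is drawn from this.

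**Figure D2:**
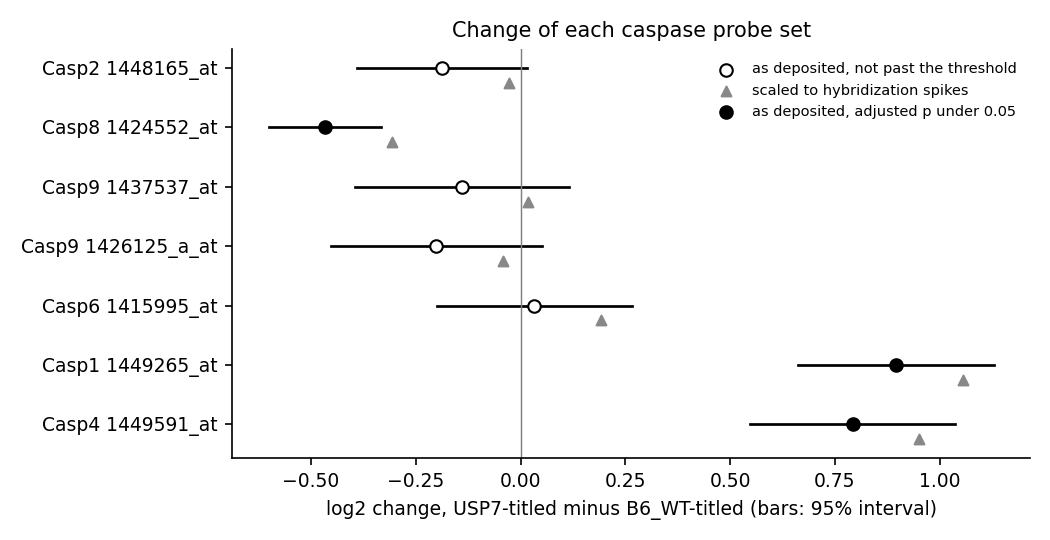
Log2 change, USP7-titled minus B6_WT-titled, of each caspase probe set with its 95% interval from limma (filled points pass the adjusted threshold of 0.05); triangles give the same change after scaling the arrays to the hybridization spikes. The intervals of Casp1 and Casp4 lie above 0 and that of Casp8 below 0, while the other 4 include 0.

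**Figure D3:**
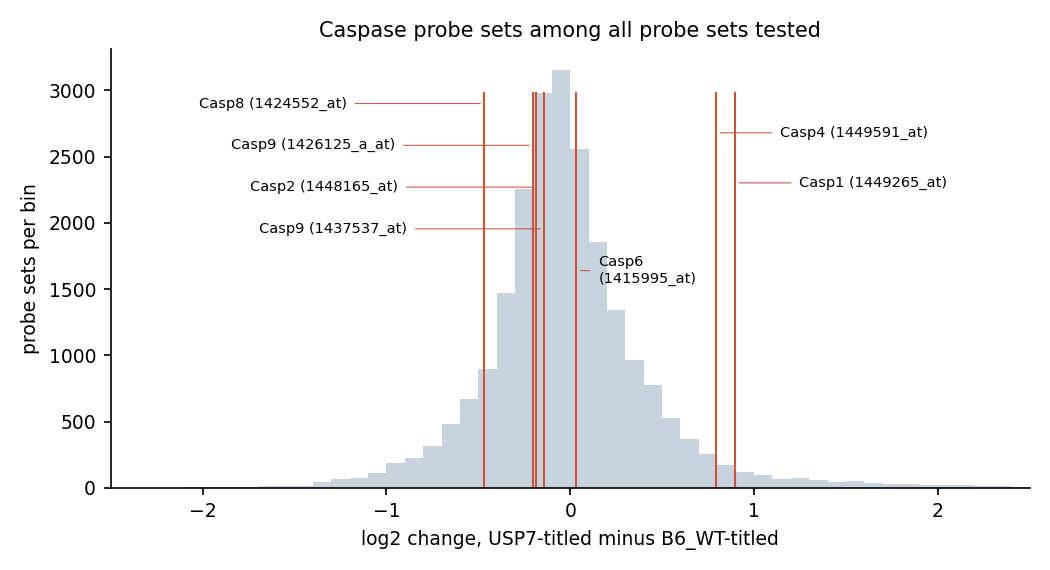
Number of probe sets in each bin of 0.1 of log2 change, USP7-titled minus B6_WT-titled, with lines at the 7 caspase probe sets; 111 probe sets lie outside the plotted range of -2.5 to 2.5. Casp1 and Casp4 stand in the upper tail and the other caspases in the body of the distribution.

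Genes that act with each caspase were counted by their brightest probe set, for which 16.9% of all 12393 genes rose and 15.6% fell, at a median of -0.05. Around Casp9, 3 of 6 apoptosome and mitochondrial factors rose and 0 fell (1 without USP7 replicate 1), at a median of 0.44. The scaffold Apaf1 read 9.93, 10.24 and 10.06 in USP7-titled arrays, against 8.75, 8.42 and 8.84 in B6_WT-titled arrays, a rise of 1.41 (SE 0.13) or 2.65-fold (limma adjusted p = 1.62e-05). Cytochrome c (Cycs), which triggers apoptosome assembly, rose by 0.70 and the mitochondrial flavoprotein Aifm1 by 0.59. So the apoptosome's scaffold and trigger rose while its protease Casp9 did not pass.

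Upstream of mitochondria, 5 of 14 BCL-2 family genes rose and 5 fell, at a median of -0.15. Those with the largest changes were Pmaip1, which encodes the death-promoting Noxa, at 2.69 (6.46-fold), the pore former Bak1 at 0.96, the survival gene Bcl2 at -0.92 and Bad at 0.89. Bbc3 (0.62) and Bid (0.41, described with the Casp2 partners) also rose. Bik (-0.65), Bmf (-0.60, at dim signal), Bcl2l11 (-0.52) and Mcl1 (-0.34) also fell. Of these 4, Bik, Bmf and Bcl2l11 promote death and Mcl1 survival, so death-promoting members went both ways. Among the inhibitors of apoptosis 1 of 8 rose and 3 fell, at a median of -0.31. Birc5 (survivin), a gene of dividing cells, rose by 3.70, whereas the ubiquitin ligases Birc2 and Birc3, which restrain Casp8 activation at tumour necrosis factor receptors, fell by 0.64 and 0.44. The third to fall was Naip5, described with the inflammasome genes. The other Birc3 probe set fell by 0.97; the mean of both was -0.70, while after spike scaling the brighter did not pass (-0.28, limma adjusted p = 0.0775). Xiap, the direct inhibitor of Casp9, was at -0.16 (limma adjusted p = 0.194).

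Around Casp8, 5 of 12 death receptor genes and partners rose and 1 fell, at a median of 0.06. The necroptosis kinase Ripk3 read 9.98, 10.34 and 10.12 in USP7-titled arrays, against 9.40, 8.995 and 9.39 in B6_WT-titled arrays, a rise of 0.88 (SE 0.13) or 1.84-fold (limma adjusted p = 0.000478). All 3 USP7-titled arrays were above the controls, opposite to Casp8. Of the 15 genes listed, Ripk1, Mlkl and Cyld had no probe set of their own. Necroptosis itself was not tested. The death receptor Tnfrsf10b rose by 0.56 (its other probe set by 1.18, and the mean of both by 0.87), the adaptor Tradd by 0.49 and Fas ligand (Fasl) by 0.48. The call of Fasl was lost without B6_WT replicate 1 (0.40), B6_WT replicate 2 (0.48) or USP7 replicate 1 (0.40), its other probe set was at -0.04, and the mean of both did not pass (0.22). Fas itself was at -0.04, its adaptor Fadd at 0.05 and the Casp8 inhibitor Cflar at -0.20 (limma adjusted p = 0.0912), none of which passed. Cflar's other probe sets ran from -0.50 to -0.23, and 2 of them passed as lower. The 1 of 12 counted as lower passed neither without any single B6_WT array nor without USP7 replicate 2 or 3, and 2 fell without USP7 replicate 1. The count of 5 was 3 without B6_WT replicate 1, B6_WT replicate 2 or USP7 replicate 1.

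Of 4 measured Casp2 partners 2 rose and 0 fell, at a median of 0.29. The PIDDosome scaffolds Pidd1 and Cradd were at 0.17 (limma adjusted p = 0.245) and -0.14 (limma adjusted p = 0.438). Mdm2, a known Casp2 substrate, rose by 0.41. Bid, cut by Casp8 and Casp2, rose by 0.41 as well, but not past the threshold when B6_WT replicate 1 (0.44), B6_WT replicate 2 (0.34), USP7 replicate 2 (0.35) or USP7 replicate 3 (0.34) was left out; 1 of the 4 then rose. Of 19 caspase substrates 9 rose and 3 fell, at a median of 0.06. The lamins cut by Casp6 and other caspases were among them: Lmnb1 rose by 1.95 and Lmna by 1.09, though dimmer Lmna probe sets were at -0.03 to 0.11 and the mean of all at 0.32. The actin-severing protein Gsn rose by 0.99, with other probe sets from -0.18 to 0.997, and vimentin (Vim) by 0.57.

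Around Casp1 and Casp4 the inflammasome genes went both ways, 2 of 12 rising and 3 falling around a median of -0.03. Pycard, the adaptor known as ASC that links sensors to Casp1, read 12.45, 12.48 and 12.50 in USP7-titled arrays, against 11.45, 11.41 and 11.54 in B6_WT-titled arrays. That is a rise of 1.01 (SE 0.05) or 2.02-fold (limma adjusted p = 1.39e-07), while its dimmer probe set was at 0.29 and did not pass; the mean of both rose by 0.65. Il18, a cytokine that Casp1 matures, read 6.36, 5.89 and 6.08 in USP7-titled arrays, against 5.39, 4.94 and 5.22 in B6_WT-titled arrays, a rise of 0.93 (SE 0.17) at dim signal. The DNA sensor Aim2 fell by 0.95 and Naip5, a sensor of bacterial flagellin, by 1.26. The Naip5 probe set was among the dimmest 40% of probe sets. Nlrp3 was at 0.07 and Il1b at -0.06 and neither passed. Casp1, Pycard and Il18 thus rose in the same arrays in which the sensors Aim2 and Naip5 fell.

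Interferons are known to raise Casp1 and Casp4 transcripts, and interferon-induced genes were therefore listed too. Of 19 measured, 1 rose and 7 fell, at a median of -0.19. Oas1a fell by 0.99, Usp18 by 0.93, Ifit2 by 0.58 and Ifit3 by 0.47 (0.31 after spike scaling); 11 did not pass, and the gene that rose was the immunoproteasome subunit Psmb9, by 0.16. The part of interferon in the caspase changes was not tested.

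Inflammatory caspases are abundant in myeloid cells, so markers of other cells are given beside them. Of 28 macrophage, monocyte and neutrophil markers 16 rose and 2 fell, at a median of 0.86. Their summed linear level was 12210 to 13880 in USP7-titled arrays and 9337 to 10226 in B6_WT-titled arrays. Lysozyme (Lyz1) rose by 2.48, with other probe sets at 0.0027 to 2.31 and a mean over all of 1.60. C1qb, a complement component, rose by 2.86, the abundant protease Ctss fell by 0.48, and Cebpb rose by 0.76, with its other probe set at 0.17 and a mean of both of 0.47. Of the defining markers, Cd14 (0.10) and Adgre1 (0.49, limma adjusted p = 0.0554) lay below the 25th percentile of brightness in both groups. Itgam was at -0.13 and Csf3r at -0.15 without passing, and Csf1r rose by 1.99, with other probe sets at 0.03 to 1.21. In all, 5 of the 28 lay below that percentile in USP7-titled arrays and 9 in B6_WT-titled arrays. Of 13 CD8 T and NK cell markers 6 rose and 1 fell, at a median of 0.19 and summed levels of 16671 to 17583 in USP7-titled arrays and 5068 to 5278 in B6_WT-titled arrays; Gzmb and Gzma rose by 3.29 and 3.21 and Nkg7 by 2.76, with Cd8a at 0.02. For B cells, 3 of 11 markers rose, 1 fell and 7 did not pass, at a median of -0.04 and summed levels of 5789 to 6555 in USP7-titled arrays and 5816 to 6213 in B6_WT-titled arrays. Ly86 rose by 1.199 and Ms4a1 by 0.998 (0.69 and not past the threshold without B6_WT replicate 1 or USP7 replicate 2, with its other probe set at 0.34), with Cd79b at 0.23 and Ighm at -0.04, neither of which passed; other Ighm probe sets ran from -0.75 to 2.85. For dendritic cells, 4 of 11 rose, 2 fell and 5 did not pass, at a median of 0.29 and summed levels of 6255 to 7067 in USP7-titled arrays and 6330 to 6807 in B6_WT-titled arrays. Tcf4 rose by 1.005 (other probe sets at 0.05 to 1.01), Clec10a by 0.98 and Bst2 by 0.63, and Ccr7 fell by 0.24, a call lost without B6_WT replicate 3 (-0.18), USP7 replicate 2 (-0.24) or USP7 replicate 3 (-0.17) and after spike scaling (-0.079). Without single arrays these counts of lower markers were 1 for myeloid cells (B6_WT replicate 3), 2 for CD8 T and NK cells (B6_WT replicate 1), 2 for B cells (USP7 replicate 1 or 3) and 1 for dendritic cells (B6_WT replicate 3, USP7 replicate 2 or 3). The part of other cells in the caspase changes was not tested. In a bulk sample, fewer cells of a type and less RNA per cell cannot be told apart.

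**Figure D4:**
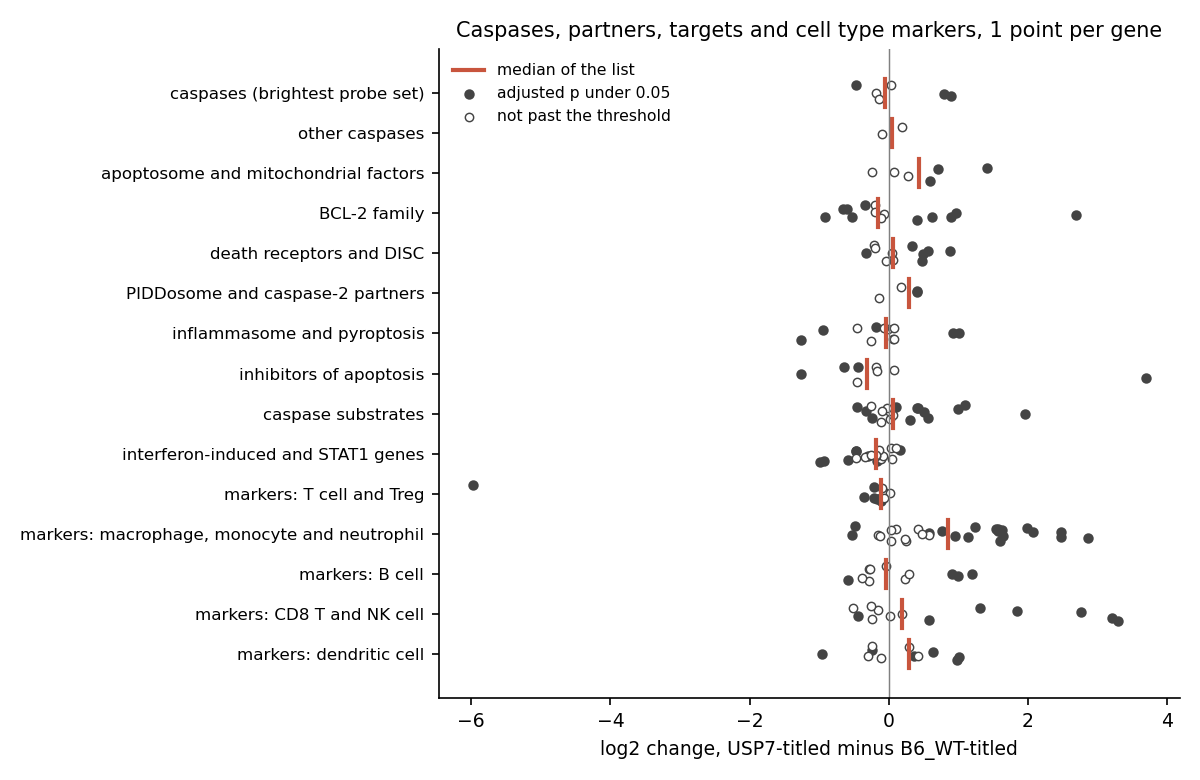
Log2 change, USP7-titled minus B6_WT-titled, of the caspases and of each list of partners, targets and markers, 1 point per gene by its brightest probe set; filled points pass the adjusted threshold of 0.05 and the bar is the list's median. Among the caspases Casp1, Casp4 and Casp8 are filled; the macrophage, monocyte and neutrophil markers have the largest median, 0.86.

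For each caspase the 2 genes with the most similar profile over the 6 arrays were found among 6196 genes at least as bright as the median gene, by the root mean square difference of mean-centred log2 values. They were Eri1 (0.051) and Fam216a (0.061) for Casp1, Acadl (0.025) and Eif4e2 (0.036) for Casp4, and Zfp106 and Dus3l (0.035 each) for Casp8. Rps24 (0.024) and Taf1d (0.026) followed Casp2 most closely, Was (0.029) and Cmtm6 (0.030) Casp6, and Zfp131 (0.028) and Gtf2a1 (0.032) Casp9. None of these 12 is a caspase, so Casp1 and Casp4 did not have each other as nearest profile.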

How the data were processed

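Gene expression of sorted CD4+YFP+ Treg was measured on 6 single-channel arrays, 3 per group. Amplification and biotin labelling started from 100 ng of total RNA, per the labels' protocols. The authors deposited 1 log2 value for each probe set and array; the base was read from their range, and how they were summarised and normalized is not given in the sources used here. If arrays were made equal in scale, a shift in RNA content per cell would not show, and dim signals compress fold changes. No detection calls were analysed, so a dim probe set cannot be said to be expressed. The number of arrays, 3 per group, limits the precision. The median residual SD was 0.156.

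The tables hold 22690 probe sets, from which 64 array controls were removed. The platform annotation gave 20380 probe sets 1 symbol, 691 several and 1555 none; 20351 matched the reference gene table (GRCm38.p6) by identifier. USP7-titled arrays were compared with B6_WT-titled arrays in limma 3.58.1 (R 4.3.3; lmFit, eBayes with trend), two-sided, adjusted over all probe sets. Changes are USP7-titled minus B6_WT-titled with standard errors (SE). A gene in a list is represented by its brightest probe set, the one with the highest mean over all arrays.

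The members and lists were chosen with earlier results of these data known. All caspases are named, from each of the other lists up to 4 genes past the threshold with the largest change, and from marker lists the 2 with the largest change and the 2 brightest. Fas, Fadd, Cflar, Pidd1, Cradd, Xiap, Nlrp3, Il1b, Cd14, Adgre1, Csf1r, Csf3r, Itgam, Psmb9, Cd8a and the X- and Y-linked genes lie outside the rule and were chosen after their values were seen. Bbc3, Bik, Bmf, Bcl2l11 and Mcl1 were also named outside it, after their values were seen. Titles share replicate numbers; same-numbered arrays deviated together with r = 0.069, -0.051 and 0.088, so the numbers were not taken as pairs. On simulated data for this comparison, with 22626 probe sets of which 200 were changed, log2 changes of size 0.5, 1 and 2 were recovered in 28.4%, 68.7% and 98.5% of cases, with 2 false calls. In the deposited data 33.3% of probe sets were called, a far larger share, so these rates may not carry over to them. Alternatives were other scalings, a filter on the 40% dimmest probe sets, gene-level fits, other variance settings, a replicate block, thresholds of 0.01 and 0.1, leaving out X and Y genes, and leaving out each array.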

Additional observations from a re-analysis of the deposited data

How the results depend on the processing

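Casp1 and Casp4 stayed higher and Casp8 lower, past the threshold, under all 19 alternatives: Casp1 at 0.80 to 1.06 (highest limma adjusted p = 0.000979), Casp4 at 0.70 to 0.95 (0.00202) and Casp8 at -0.52 to -0.31 (0.0147). Leaving out each array gave 0.80 to 0.95 for Casp1, 0.70 to 0.88 for Casp4 and -0.52 to -0.42 for Casp8. Casp2, Casp6 and Casp9 passed under none. Casp6 ran from -0.012 to 0.076 leaving out each array, the negative value being that without USP7 replicate 2, and the brighter Casp9 probe set was at 0.019 after spike scaling, which also turned Casp12 to 0.063, Cd3d to 0.089, Cd2 to 0.097 and Ighm to 0.12. Ighm was at 0.74 by the mean of its probe sets and ran from -0.10 to 0.00096 leaving out each array, against -0.04. Hdac11 missed the threshold after spike scaling (-0.42), at a threshold of 0.01 (-0.58) and by the mean of its probe sets (-0.40). Its brighter probe set also missed without B6_WT replicate 1 (-0.44) or USP7 replicate 2 (-0.50), and passed without each of the other arrays. Leaving out each array gave -0.69 to -0.44. Spike scaling moved the median of all genes from -0.05 to 0.11: 2931 genes rose and 918 fell (76.1% of calls higher), against 2089 and 1929 (52.0%) as deposited. At a threshold of 0.01, 1167 genes fell. Among the 91 pathway genes 26 rose and 21 fell as deposited, and 13 fell after spike scaling. Counts in single lists that moved by over 1.5 times were those of death receptor partners (5 higher, 3 at the least; 1 lower, 0 to 2), Casp2 partners (2 higher, 1 to 3), BCL-2 family genes (5 lower, 3 to 6), inflammasome genes (2 higher, 1 at the least), inhibitors of apoptosis (3 lower, 2 to 5), apoptosome factors (0 lower, 1 at the most), caspase substrates (3 lower, 1 to 4), interferon-induced genes (1 higher, 0 to 2) and, among lower markers, those of T cells (7, 2 to 8), myeloid cells (2, 1 to 2), B cells (1, 0 to 2), CD8 T and NK cells (1, 0 to 2) and dendritic cells (2, 1 to 3); B cell markers higher were 3, 1 to 4, and T cell markers higher 0, 1 at the most. The cause of these shifts was not tested. With the replicate number as a replicate block Casp1 was at 0.90 (limma adjusted p = 0.000188), Casp4 at 0.79 (0.000762) and Casp8 at -0.47 (0.000339), and no caspase call changed.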

Other observations

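The genes beside each caspase in the reference annotation were looked at after the results above were seen, as the 3 nearest measured protein-coding genes on each side. Casp8 lies next to Cflar, its inhibitor, which was at -0.20 and did not pass by its brightest probe set. Of the other Cflar probe sets 2 passed as lower. On that side the next gene, the mitochondrial Ndufb3, rose by 0.53. Mpp4 on the other side of Casp8 did not pass. Beside Casp1 and Casp4, the glutamate receptor gene Gria4 (0.10), Msantd4 (0.05), Ppp2r3d (-0.23) and Pdgfd (-0.05) did not pass, and Dcun1d5, a neddylation factor, rose by 0.25. Of the 6 neighbours 1 rose and 0 fell beside Casp2 (Zyx, 0.22), 1 rose and 1 fell beside Casp6 (Ostc at 0.54 and Sec24b at -0.30), and 1 rose and 0 fell beside Casp9 (Efhd2, 0.53), where 16.9% of all genes rose and 15.6% fell.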
